A study of Homo sapiens with 60 samples.

Results

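The 9 genes described here encode cytochrome P450 enzymes of the CYP2 and CYP3 families that oxidize drugs: CYP3A4, CYP3A5, CYP3A7, CYP2B6, CYP2C8, CYP2C19, CYP2D6, CYP2E1 and CYP2J2. They were taken by symbol from the 60675 Ensembl gene identifiers of the deposited count table, and each symbol matched 1 identifier. RNA was sequenced from 60 libraries of HepG2, a human liver cancer line, after 24 h with 1 of 8 herbal extracts at 3 doses or with vehicle. Yijin-tang and Soshiho-tang, both multi-herb decoctions, were hot-water extracts. Extracts of Liriopis seu Ophiopogonis Tuber, Schisandrae Fructus, Longan Arillus and Zizyphi Semen were made with 70% ethanol, as were those of Polygalae Radix and Aucklandiae Radix. The first 6 extracts were given at 500 (high), 100 (medium) and 20 (low) µg/mL, Polygalae Radix at 250, 50 and 10 µg/mL and Aucklandiae Radix at 280, 56 and 11.2 µg/mL. Each group had 3 libraries, except Soshiho-tang with 2 per dose and Polygalae Radix and Aucklandiae Radix with 1 per dose. The vehicle group had 3 libraries and received 0.1% DMSO per the sample labels, while the series text gives 2%, a conflict the values do not settle. No label says that replicates were separate cultures, so p-values measure the spread between these libraries, which may be technical.

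Cytochrome P450 enzymes are haem proteins of the endoplasmic reticulum that insert oxygen into lipophilic drugs with electrons passed on by P450 oxidoreductase and cytochrome b5. In adult liver the transcription of CYP3A4, CYP2B6 and the CYP2C genes is raised by foreign compounds through the nuclear receptors PXR and CAR, while CYP2D6 is known for responding little to inducers. CYP3A7 is the form of fetal liver, and HepG2 cells are known for low levels of most of these enzymes.

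CYP3A4, CYP3A5 and CYP3A7 lie side by side on the minus strand of chromosome 7, at 99756960 to 99784265, 99648194 to 99680026 and 99684957 to 99735196 in GENCODE 29 on GRCh38. Their upstream sequences show how close copies of 1 gene differ at the best known receptor element of the cluster, an everted repeat to which PXR binds in CYP3A4. The windows below, from RefSeq (GRCh38.p14), run 5′ to 3′ along the gene strand, with the half-sites TGAACT and AGGTCA in capitals.
CYP3A4 (chr7:99784306-99784383, minus strand): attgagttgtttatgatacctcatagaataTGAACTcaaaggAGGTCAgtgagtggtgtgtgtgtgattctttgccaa
CYP3A7 (chr7:99735317-99735394, minus strand): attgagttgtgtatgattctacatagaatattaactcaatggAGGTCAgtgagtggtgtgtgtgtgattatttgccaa
CYP3A5 (chr7:99680062-99680139, minus strand): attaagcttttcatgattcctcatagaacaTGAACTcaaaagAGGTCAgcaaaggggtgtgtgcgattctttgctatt

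The motif TGAACTNNNNNNAGGTCA, searched on both strands in the 250 bases before each start, stood 169 to 152 bases before the start of CYP3A4 and 113 to 96 bases before that of CYP3A5. It was found in 3 of 27305 promoters (0.011%). CYP3A7 held the AGGTCA half-site, 156 to 151 bases before its start, and AGGTCA alone, which is part of the longer motif, was found in 12.1% of promoters. Over the 78 bases shown, CYP3A7 shared 71 bases with CYP3A4 (91.0%), and CYP3A5 shared 48 with it (61.5%). Of the 9 genes 8 had an entry in the promoter table, CYP2D6 being the other. The matches describe letters and say nothing of binding in these cells.

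CYP2J2, on the minus strand of chromosome 1 at 59893308 to 59926790, has a promoter of another kind. The stretch 150 to 31 bases before its start is shown because the gene had the largest of the called changes between high and low dose. Its only match to GCGTG, the core of the element bound by the aryl hydrocarbon receptor, is in capitals.
CYP2J2 (chr1:59926804-59926923, minus strand): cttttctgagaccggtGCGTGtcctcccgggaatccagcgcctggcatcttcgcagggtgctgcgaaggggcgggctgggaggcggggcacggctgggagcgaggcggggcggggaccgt

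The core stands 134 to 130 bases before the start, and GCGTG was found on either strand in 31.9% of promoters. No everted repeat was found in these 250 bases.

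Only 4 of the 9 genes were detected in HepG2, taken as at least 10 counts in at least 2 of the 3 vehicle libraries: CYP3A5, CYP3A7, CYP2J2 and CYP2D6. Over all 60 libraries CYP3A5 had 70 to 222 counts, CYP3A7 43 to 227, CYP2J2 70 to 165 and CYP2D6 18 to 48. The other 5 were sparse. CYP3A4, the main drug-oxidizing P450 of adult liver, had 0 to 14 counts in a library. CYP2C8, which oxidizes paclitaxel, had 0 to 11 counts, and CYP2E1, which oxidizes ethanol, 1 to 10. CYP2B6, a bupropion hydroxylase, never exceeded 3 counts, and CYP2C19, which activates clopidogrel, never exceeded 1. The 4 detected genes passed the filter on low counts and none of the sparse ones did.

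**Figure D1:**
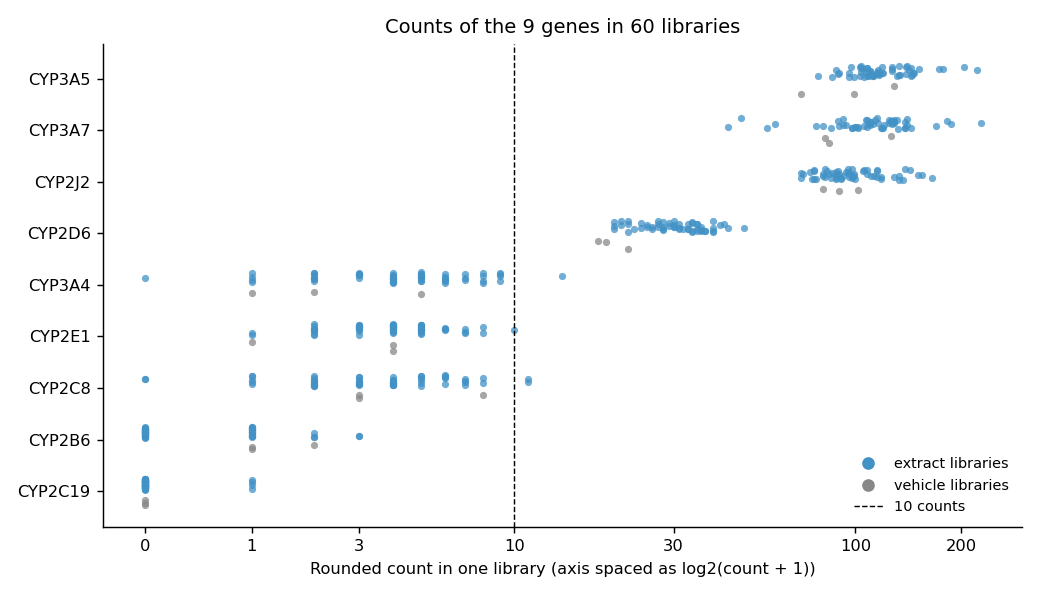
Rounded counts of the 9 genes in each of the 60 libraries, on an axis spaced as log2(count + 1), with the 57 extract libraries above the 3 vehicle libraries of each gene. The dashed line marks 10 counts. CYP3A5, CYP3A7, CYP2J2 and CYP2D6 lie to the right of it in every library, and the other 5 genes reach it in at most 2 libraries each.

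Per length, in CPM (counts per M counts, M standing for mega, on library sizes normalized by trimmed mean of M values) per kilobase of exon in vehicle, CYP2J2 stood at 1.25, CYP3A7 at 1.04, CYP3A5 at 0.595 and CYP2D6 at 0.335. CYP2C8 followed at 0.0722 and CYP3A4 at 0.0346. CYP2W1, a P450 of the same superfamily known from fetal gut and tumours, stood at 38.1 on this scale. The length used is that of all annotated exons of a gene merged, such as 6759 bases for CYP3A5 and 2990 for CYP2J2. It can exceed that of the transcripts present, so the order depends on the annotation. Without division by length, vehicle stood at 4.02 CPM of CYP3A5, 3.96 of CYP3A7, 3.75 of CYP2J2 and 0.817 of CYP2D6.

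The liver identity of the cells was checked on marker genes. The 6 hepatocyte markers ALB, APOA1, TTR, TF, SERPINA1 and AFP summed to 18310 to 25860 CPM in the libraries of the 19 replicated groups. In the same libraries 3 fibroblast markers summed to 0.406 to 1.47 CPM and 4 leukocyte and endothelial markers to 5.21 to 7.95 CPM, with COL1A2 and PTPRC at a median of 0. Expected counts summed to between 20.7 M and 38.0 M per library. Of 51 replicate pairs 0 were identical, and their chi-square per degree of freedom was 2.7 to 63.9. Low-dose Schisandrae Fructus replicate 1 and high-dose Liriopis seu Ophiopogonis Tuber replicate 2 stood farthest from their replicates. Levels in bulk RNA are shares of a library, so fewer cells of a kind and less RNA per cell cannot be told apart.

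Each of the 4 detected genes was tested in 6 extracts, which gives 24 tests per comparison. Between high and low dose 4 of the 24 were called (edgeR's quasi-likelihood test, adjusted p under 0.05 over the 16924 genes tested). CYP2J2 rose with Yijin-tang and Soshiho-tang, CYP3A5 rose with Schisandrae Fructus and CYP3A7 fell with Soshiho-tang. Of all genes tested, 7.79% were called in this comparison with Yijin-tang, 5.08% with Soshiho-tang, 7.33% with Schisandrae Fructus, 0.0295% with Liriopis seu Ophiopogonis Tuber, 0.0177% with Longan Arillus and 0.0355% with Zizyphi Semen. The median log2 change of the 4 genes was -0.01 with Yijin-tang, 0.10 with Soshiho-tang and 0.25 with Schisandrae Fructus, against -0.00281, -0.0016 and -0.00579 over all genes.

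Between medium and low dose 0 of 24 tests were called by edgeR and 0 by DESeq2, with 5 at an unadjusted p under 0.05. Over all genes the called share was 0.00591% with Yijin-tang, 0.118% with Soshiho-tang, 0% with Liriopis seu Ophiopogonis Tuber, 0.0709% with Schisandrae Fructus, 0% with Longan Arillus and 0.00591% with Zizyphi Semen. CYP3A7 had a negative medium against low change in all 6 extracts, from -0.40 with Yijin-tang to -0.14 with Schisandrae Fructus on the log2 scale, with none called. CYP2J2 had a positive one in all 6, from 0.001 with Schisandrae Fructus to 0.44 with Soshiho-tang, again with none called. How many of all genes kept 1 sign was not counted.

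Between high dose and vehicle 9 of 24 tests were called, 8 of them higher. Over all genes the called share was 23.4% with Yijin-tang, 21.8% with Soshiho-tang, 16.8% with Liriopis seu Ophiopogonis Tuber, 22.1% with Schisandrae Fructus, 19.6% with Longan Arillus and 16.9% with Zizyphi Semen. Between low dose and vehicle 1 of 24 was called, with background shares of 15.2% with Yijin-tang, 11.9% with Soshiho-tang, 16.6% with Liriopis seu Ophiopogonis Tuber, 21.5% with Schisandrae Fructus, 20.1% with Longan Arillus and 16.5% with Zizyphi Semen. With library size alone as scaling, 10 of the 24 low-dose tests were called. All these comparisons share the same 3 vehicle libraries, which carry a sample code of their own, so extract and code set cannot be told apart against vehicle. Without vehicle replicate 2 the calls against vehicle numbered 4 at high dose and 0 at low dose. At low dose the calls numbered 3 without vehicle replicate 1 and 0 without low-dose Schisandrae Fructus replicate 1, and without vehicle replicate 3 the single call was CYP2D6 with Yijin-tang in place of CYP3A7 with Schisandrae Fructus.

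**Figure D2:**
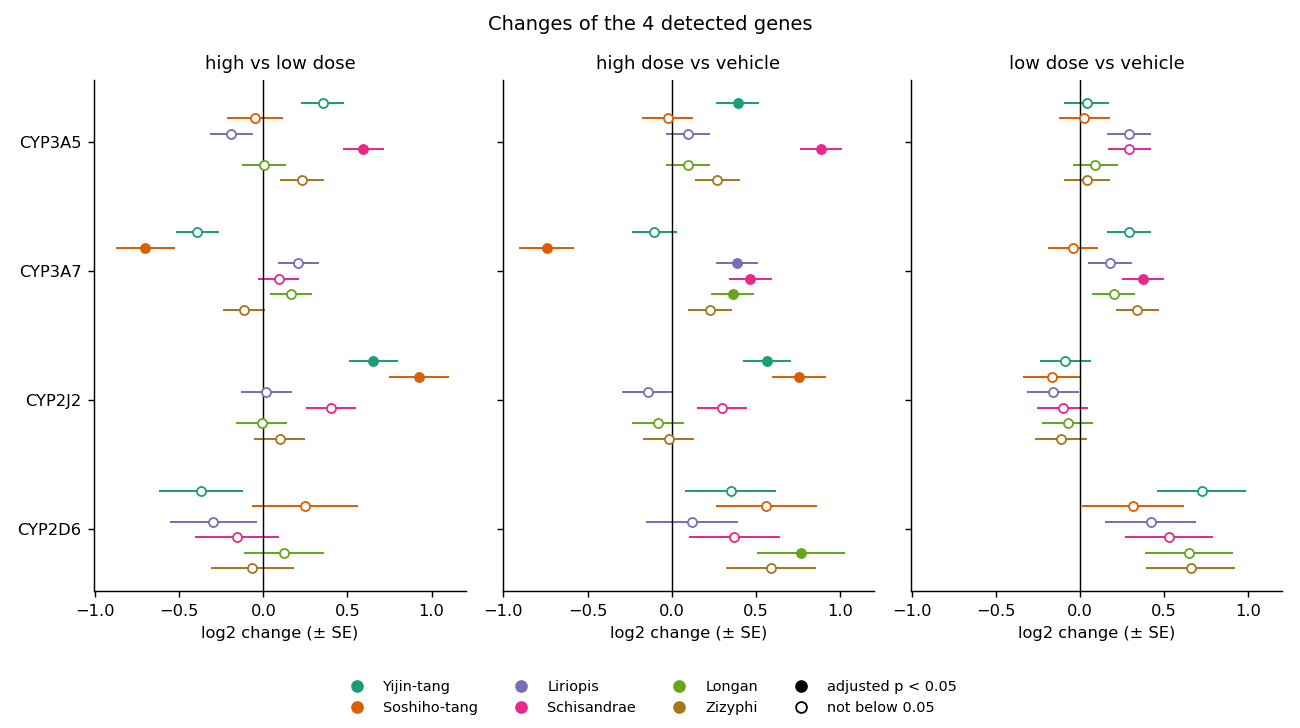
Log2 changes of CYP3A5, CYP3A7, CYP2J2 and CYP2D6 with their standard errors in 6 extracts, for high dose against low dose, high dose against vehicle and low dose against vehicle. Filled points have an adjusted p under 0.05. Between high and low dose 4 points are filled, CYP2J2 with Yijin-tang and Soshiho-tang, CYP3A5 with Schisandrae Fructus, and CYP3A7 with Soshiho-tang, the only one below 0.

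CYP3A5, which shares most substrates with CYP3A4 and is expressed in only some adults, was highest with Schisandrae Fructus. High-dose libraries of that extract had 8.02, 6.99 and 7.42 CPM, against 5.40, 4.39 and 5.06 CPM in low-dose libraries. Every high-dose library stood above every low-dose library, and medium-dose libraries, at 5.27, 5.30 and 5.16 CPM, lay within the low-dose range. The gene rose by 0.59 ± 0.12 on the log2 scale between high and low dose (SE, edgeR adjusted p = 0.000762). Against vehicle, with 4.78, 4.09 and 3.20 CPM, the change of high-dose Schisandrae Fructus was 0.89 ± 0.13 (edgeR adjusted p = 9.53e-07). Both calls held without each library in turn, with an adjusted p of at most 0.0104 between doses and 6.29e-05 against vehicle. Fitted on the groups of that comparison alone, the change between doses was 0.59 with an adjusted p of 0.0553.

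The dose response of CYP3A5 differed between Schisandrae Fructus and Liriopis seu Ophiopogonis Tuber, which carry sample codes of 1 set. High-dose Liriopis seu Ophiopogonis Tuber libraries had 3.82, 4.22 and 4.92 CPM of CYP3A5, against 4.74, 4.82 and 5.25 CPM at low dose. These groups overlapped, with a log2 change of -0.19 ± 0.13 that was not called. The difference of the dose responses, Schisandrae Fructus minus Liriopis seu Ophiopogonis Tuber, was 0.79 ± 0.18 (edgeR adjusted p = 0.0046), against a background of 4.11% of genes called. It was the only one of 12 such tests to be called, and fitted on these groups alone its adjusted p was 0.0703. For Soshiho-tang minus Yijin-tang the background was 0.88% and for Zizyphi Semen minus Longan Arillus 0.00591%.

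With Yijin-tang CYP3A5 stood at 5.67, 5.03 and 5.27 CPM at high dose, against 4.39, 3.86 and 4.23 CPM at low dose. The groups did not overlap, and the log2 change of 0.35 ± 0.13 was not called (adjusted p = 0.0914). Against vehicle the high dose was higher by 0.39 ± 0.13 (edgeR adjusted p = 0.0229). That call was lost without vehicle replicate 2 (adjusted p = 0.0531), vehicle replicate 3 (0.198) or high-dose Yijin-tang replicate 1 (0.0912), and in a fit on the groups of that comparison alone (0.0581). With Soshiho-tang, Longan Arillus and Zizyphi Semen the high against low log2 changes of CYP3A5 were -0.05, 0.01 and 0.23, with 95% intervals that together ran from -0.38 to 0.49.

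In the order of the 25 group means of CYP3A5, high-dose Schisandrae Fructus was first at 7.48 CPM and the single high-dose Aucklandiae Radix library second at 6.65 CPM. That gap exceeded the SD of 0.515 CPM of the first group. From the third group, the single medium-dose Polygalae Radix library at 5.41 CPM, down to vehicle, which was 21st at 4.02 CPM, neighbours lay closer than their SD. The highest group mean was 2.10 times the lowest.

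CYP3A7, the fetal form of the enzyme, fell with Soshiho-tang. High-dose libraries had 2.36 and 2.39 CPM, against 3.73 and 3.99 CPM in low-dose libraries, and medium-dose libraries lay between them at 3.15 and 2.82 CPM. No 2 of these 3 doses overlapped. With 2 libraries per dose that carries little weight, and how many of all genes do so was not counted. Between medium and low dose of this extract CYP3A5, CYP2D6 and CYP2J2 did not overlap either, and none of the 4 detected genes was called. The log2 change of CYP3A7 between high and low dose was -0.70 ± 0.18 (edgeR adjusted p = 0.00821). That call was lost without high-dose replicate 2 (adjusted p = 0.0895), high-dose replicate 3 (0.0855) or low-dose replicate 3 (0.0979), where the lone library left is assumed to vary like the other groups. The log2 change itself was -0.71 to -0.65 in those 3 fits. Vehicle libraries had 4.66, 3.39 and 3.84 CPM of CYP3A7, and the high dose was lower than vehicle by a log2 change of -0.74 ± 0.16 (edgeR adjusted p = 0.000652), which held without each library in turn. The summed hepatocyte markers had a mean of 18840 CPM at high dose, against 20350 CPM at low dose, and the summed fibroblast markers 0.456 CPM against 1.02 CPM, and their part in the change of CYP3A7 was not tested.

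Yijin-tang, the other water extract, gave CYP3A7 levels of 3.59, 3.57 and 3.96 CPM at high dose, against 5.06, 4.64 and 4.87 CPM at low dose. The groups did not overlap and the log2 change was -0.39 ± 0.13, with an adjusted p of 0.0509, just over the threshold. It was called with library size alone as scaling (0.0338), without both libraries that stand apart (0.0338) and in a fit on the groups of that comparison alone (0.0398). The difference of the dose responses of CYP3A7, Soshiho-tang minus Yijin-tang, was -0.31, with a 95% interval from -0.75 to 0.13. With high-dose Yijin-tang the level of CYP3A7 overlapped that of vehicle.

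With the 4 replicated ethanol extracts the log2 changes of CYP3A7 between high dose and vehicle were positive. Libraries of high-dose Schisandrae Fructus had 6.57, 5.21 and 4.61 CPM, those of Liriopis seu Ophiopogonis Tuber 5.05, 5.41 and 5.10 CPM and those of Longan Arillus 4.92, 4.79 and 5.66 CPM. The changes against vehicle were called, at 0.47 ± 0.13, 0.39 ± 0.13 and 0.36 ± 0.13 on the log2 scale (edgeR adjusted p = 0.00587, 0.029 and 0.0391). Zizyphi Semen, at 4.56, 5.40 and 4.07 CPM, gave 0.23 ± 0.13, which was not called. Between high and low dose none of these 4 extracts had a called change of CYP3A7, with log2 changes from -0.11 to 0.21.

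Single libraries moved these calls across the threshold, while the changes stayed positive without each library in turn, at 0.31 to 0.60 with high-dose Schisandrae Fructus, 0.28 to 0.52 with Liriopis seu Ophiopogonis Tuber and 0.26 to 0.50 with Longan Arillus. The call of CYP3A7 with Schisandrae Fructus was lost without vehicle replicate 2 (adjusted p = 0.0652) or high-dose replicate 1 (0.11). The call with Longan Arillus was lost without vehicle replicate 2 (0.223), vehicle replicate 3 (0.106), high-dose replicate 1 (0.0639) or high-dose replicate 3 (0.161). That with Liriopis seu Ophiopogonis Tuber was lost without any 1 of its libraries except vehicle replicate 1, with adjusted p from 0.0538 without high-dose replicate 3 to 0.195 without vehicle replicate 2. Low-dose Schisandrae Fructus was also above vehicle in CYP3A7, with 6.04, 4.5 and 4.83 CPM and a log2 change of 0.38 ± 0.13 (edgeR adjusted p = 0.0274). That call was lost without low-dose replicate 1 (0.278), vehicle replicate 2 (0.187) or vehicle replicate 3 (0.086), with changes of 0.23 to 0.52 over all such fits. In a fit on the groups of each comparison alone the calls of CYP3A7 with Liriopis seu Ophiopogonis Tuber (0.162), Longan Arillus (0.077) and low-dose Schisandrae Fructus (0.22) were lost, and without the filter those with Liriopis seu Ophiopogonis Tuber (0.0606) and Longan Arillus (0.0935). DESeq2 gave 0.0651 with Longan Arillus.

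CYP3A7 shares reads with the readthrough transcript CYP3A7-CYP3A51P: 37.7% of the 100-base windows of its transcripts occur there unchanged, and 31 of its 60 deposited values had a fraction. The readthrough was given 167 counts over all libraries, against 6865 given to CYP3A7, with at most 12 in 1 library. The order of the CYP3A7 group means ran from the single low-dose Polygalae Radix library at 7.44 CPM, above the next group by more than that group's SD, to the single high-dose libraries of Aucklandiae Radix at 2.17 CPM and Polygalae Radix at 1.79 CPM. High-dose Soshiho-tang was lowest of the replicated groups at 2.38 CPM, and the low-, medium- and high-dose means of that extract lay apart by more than their SD.

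CYP2J2, an epoxygenase of arachidonic acid that also oxidizes antihistamines, had the largest called change between high and low dose, with Soshiho-tang. With that extract its high-dose libraries had 6.54 and 6.12 CPM, against 3.07 and 3.58 CPM at low dose. Medium-dose libraries, at 4.78 and 4.21 CPM, lay between them without overlap, at 2 libraries per dose. The log2 change between medium and low dose was 0.44 ± 0.18 and was not called (edgeR adjusted p = 0.78). The log2 change between high and low dose was 0.93 ± 0.18 (edgeR adjusted p = 0.00038). Against vehicle, with 3.33, 4.22 and 3.70 CPM, the change of the high dose was 0.76 ± 0.16 (edgeR adjusted p = 0.000401).

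With Yijin-tang high-dose libraries had 5.51, 5.46 and 5.67 CPM of CYP2J2, against 3.42, 4.27 and 2.82 CPM at low dose. The high-dose libraries lay close together and stood above all others of that extract, whose medium-dose libraries had 3.21, 4.38 and 4.17 CPM. The log2 change was 0.65 ± 0.15 between high and low dose (edgeR adjusted p = 0.00201) and 0.57 ± 0.15 between high dose and vehicle (0.00311). All 4 of these CYP2J2 calls held without each library in turn, with adjusted p of at most 0.0419. The dose responses of the water extracts were not shown to differ: the difference, Soshiho-tang minus Yijin-tang, was 0.27, with a 95% interval from -0.20 to 0.74.

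High-dose Schisandrae Fructus libraries had 4.26, 5.37 and 4.15 CPM of CYP2J2, against 3.54, 4.23 and 2.7 CPM at low dose. The groups overlapped, and the log2 change of 0.40 ± 0.15 was not called (adjusted p = 0.0883). It was called without low-dose replicate 2 (log2 change 0.55, adjusted p = 0.0202). With Liriopis seu Ophiopogonis Tuber, Longan Arillus and Zizyphi Semen the high against low log2 changes of CYP2J2 were 0.02, -0.01 and 0.10, with 95% intervals that together ran from -0.32 to 0.41. At low dose CYP2J2 lay a little under vehicle in all 6 extracts, with log2 changes from -0.17 to -0.07, none called.

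High-dose Soshiho-tang, high-dose Yijin-tang and high-dose Schisandrae Fructus led the order of CYP2J2 group means, at 6.33, 5.55 and 4.6 CPM. The gap below each of the water extracts exceeded the SD of the groups beside it, and the gap below Schisandrae Fructus did not. Vehicle was 7th at 3.75 CPM. CYP2J2 had no fractional value among the 60 and shared no 100-base window with a transcript of another gene.

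**Figure D3:**
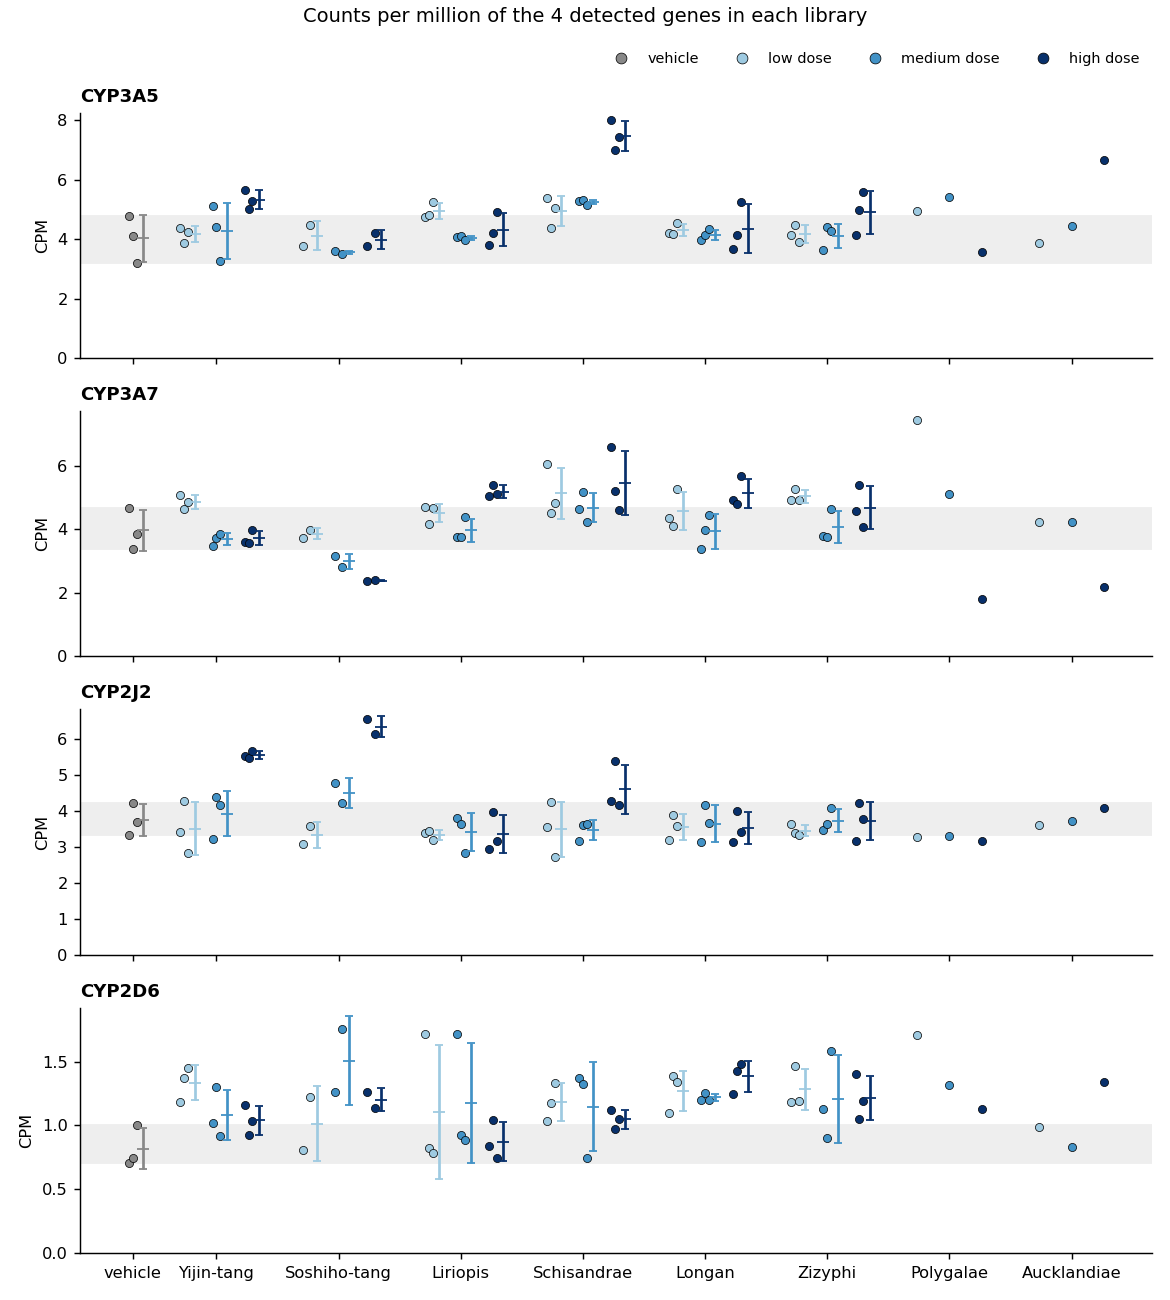
CPM of CYP3A5, CYP3A7, CYP2J2 and CYP2D6 in each library, with vehicle first and each extract's low, medium and high dose in order. Points are libraries, bars give the mean and SD of groups with 2 or 3 libraries, and the grey band spans the vehicle libraries. Among the high-dose groups wholly outside the band, Yijin-tang and Soshiho-tang stand above it in CYP2J2 and Polygalae Radix below it. In CYP3A5 high-dose Schisandrae Fructus, Yijin-tang and Aucklandiae Radix stand above it. In CYP3A7 high-dose Liriopis seu Ophiopogonis Tuber and Longan Arillus stand above it, and high-dose Soshiho-tang, Polygalae Radix and Aucklandiae Radix below it. Groups at other doses lie outside it too. Medium-dose Schisandrae Fructus stands above it in CYP3A5 (5.16 to 5.30 CPM) and low-dose Zizyphi Semen in CYP3A7 (4.91 to 5.26 CPM). Medium-dose Soshiho-tang stands below it in CYP3A7 (2.82 to 3.15 CPM). In CYP2D6 groups at all 3 doses stand above it.

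CYP2D6, which oxidizes codeine and many psychoactive drugs, had no called change between doses. Its 6 high against low changes had log2 values from -0.37 with Yijin-tang to 0.25 with Soshiho-tang and 95% intervals that together ran from -0.88 to 0.88. Medium-dose Soshiho-tang libraries had 1.26 and 1.76 CPM of CYP2D6, against 0.805 and 1.22 CPM at low dose. They did not overlap, and the log2 change was 0.58 ± 0.30 (95% interval -0.03 to 1.19, adjusted p = 0.913). Its vehicle libraries, at 0.703, 0.744 and 1.00 CPM from 19, 18 and 22 counts, had the lowest mean of all 25 groups, and 43 of the 57 extract libraries stood above the highest of them. All 6 high-dose and all 6 low-dose changes against vehicle were positive, from 0.12 to 0.77 and from 0.32 to 0.72 on the log2 scale, and these 12 share the vehicle libraries.

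One of those changes of CYP2D6 was called. High-dose Longan Arillus libraries had 1.25, 1.42 and 1.48 CPM and did not overlap vehicle, with a log2 change of 0.77 ± 0.26 (edgeR adjusted p = 0.0314). The call was lost without vehicle replicate 1 (0.145), vehicle replicate 2 (0.0975), high-dose replicate 2 (0.0808) or high-dose replicate 3 (0.0811), and in the fit without the filter (0.0529). Beside it, low-dose Longan Arillus had 1.09, 1.38 and 1.34 CPM and was not called (adjusted p = 0.0739). It did not overlap vehicle either. The same held for low-dose Yijin-tang, high-dose Soshiho-tang, low-dose Schisandrae Fructus and high- and low-dose Zizyphi Semen. None of these was called, low-dose Yijin-tang standing at 0.72 ± 0.26 (edgeR adjusted p = 0.0555). How many of all genes did not overlap vehicle was not counted. Of the 100-base windows of CYP2D6 transcripts 13.5% occur in other genes, nearly all in the pseudogene CYP2D7, and 52 of its 60 values had a fraction. CYP2D7 was given 1433 counts over all libraries, against 1819 for CYP2D6, and a gene transcribed from the opposite strand, NDUFA6-DT, covers the whole CYP2D6 locus, so CYP2D6 values are uncertain. Neighbours in the order of its group means, from the single low-dose Polygalae Radix library at 1.71 CPM to vehicle at 0.817 CPM, did not differ beyond their SD where one could be had.

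The sparse genes allowed no test in the filtered fit. CYP3A4 totalled 277 counts and was above 0 in 59 of the 60 libraries. Its highest replicated group mean was 0.274 ± 0.186 CPM with medium-dose Longan Arillus (SD, n = 3), where 1 library held 14 counts, and vehicle stood at 0.109 ± 0.086 CPM from 8 counts. The vehicle sum has a 95% Poisson interval of 0.0473 to 0.216 CPM, which covers counting error only. High-dose Schisandrae Fructus, where CYP3A5 was highest, had 8 counts of CYP3A4 at 0.104 ± 0.0555 CPM. A count of 3 corresponds to 0.0798 to 0.139 CPM across the depths of these libraries, so most CYP3A4 levels lay near that limit.

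CYP2C8 totalled 238 counts, with group sums between 0 counts in the single high-dose Polygalae Radix library and 19 in high-dose Liriopis seu Ophiopogonis Tuber. CYP2E1 totalled 247 counts and was highest with low-dose Zizyphi Semen at 0.245 ± 0.095 CPM, against 0.128 ± 0.0796 CPM in vehicle. CYP2B6 totalled 35 counts in 27 libraries, 4 of them counts from vehicle. CYP2C19 had 4 counts in all, 1 each in 2 high-dose Yijin-tang libraries, 1 low-dose Longan Arillus library and the high-dose Aucklandiae Radix library, with 0 in vehicle. Of the 100-base windows of CYP2C19 transcripts 35.1% occur in other genes, nearly all in AL583836.1, an overlapping gene of the same strand. The counts given to AL583836.1 were not examined, so CYP2C19 values are uncertain. In a fit without the filter 0 of 135 tests of the 5 sparse genes were called by edgeR, with 1 at an unadjusted p under 0.05.

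Polygalae Radix and Aucklandiae Radix had 1 library per dose, so their values have no test and the intervals given cover counting error only. CYP3A7 had 170, 132 and 43 counts at 10, 50 and 250 µg/mL Polygalae Radix, or 7.44, 5.10 and 1.79 CPM. The high dose held 0.241 times the low-dose level (95% interval 0.168 to 0.338). It was the only member apart by at least 1 on the scale of log2(CPM + 1), by -1.60, where 10.6% of all genes were that far apart with Polygalae Radix and 15.9% with Aucklandiae Radix. With Aucklandiae Radix CYP3A7 had 116, 102 and 47 counts at 11.2, 56 and 280 µg/mL, and the high dose held 0.513 times the low-dose level (0.357 to 0.725).

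CYP3A5 went the other way with Aucklandiae Radix, with 106, 107 and 144 counts from low to high dose and a high over low ratio of 1.72 (1.33 to 2.23). With Polygalae Radix its ratio was 0.724 (0.541 to 0.967). CYP2J2 ratios were 0.964 (0.692 to 1.34) with Polygalae Radix and 1.12 (0.834 to 1.51) with Aucklandiae Radix, and those of CYP2D6 were 0.659 (0.388 to 1.1) and 1.36 (0.776 to 2.39), all with intervals that include 1. The summed hepatocyte markers moved with these doses: they stood at 19810, 15500 and 6456 CPM from low to high Polygalae Radix and at 18240, 17230 and 13160 CPM from low to high Aucklandiae Radix. Their part in the CYP values was not tested.

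Of the 11 other CYP2 and CYP3 genes followed, 5 passed the filter, and 5 of their 30 gene and extract pairs were called between high and low dose, 3 higher and 2 lower. They were 3 of 5 genes with Yijin-tang and 2 of 5 with Schisandrae Fructus, against 7.79% and 7.33% of all genes. CYP2S1, a P450 of epithelia, was at 7.94 CPM with high-dose Yijin-tang, against 5.6 CPM at low dose, higher by 0.50 ± 0.12 (edgeR adjusted p = 0.00361). With high-dose Schisandrae Fructus CYP2S1 was at 7.89 CPM, against 5.37 CPM at low dose, higher by 0.58 ± 0.12 (0.00078), a call lost in a fit on the groups of that comparison alone (0.108). Vehicle stood at 8.36 CPM of CYP2S1, so that all 4 of these means lay under it, and neither high dose was called against vehicle. CYP3A43, the fourth gene of the CYP3A cluster, was lower at high than at low dose of Yijin-tang by a log2 change of -1.49 ± 0.34 (0.00625), at 0.188 CPM against 0.533 CPM, and this was lost without low-dose replicate 1 (0.0949). Vehicle stood at 0.204 ± 0.0708 CPM of CYP3A43 (SD, n = 3), near the high dose, and the low dose was above vehicle by 1.36 ± 0.34 (edgeR adjusted p = 0.011).

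CYP2W1 was the most abundant CYP2 gene followed, at 106 CPM in vehicle. It was lower at high dose with Yijin-tang, by a log2 change of -0.23 ± 0.07 (edgeR adjusted p = 0.0231), and higher with Schisandrae Fructus, by 0.21 ± 0.07 (0.0427). The Yijin-tang call of CYP2W1 was lost without any 1 of its libraries except low-dose replicate 1 (adjusted p 0.0527 to 0.163), and the other without any 1 of the high-dose libraries or low-dose replicate 1 (0.0657 to 0.587), with library size alone (0.161) and on the groups of that comparison alone (0.489). In the single libraries of Aucklandiae Radix CYP2W1 stood at 103, 110 and 8.22 CPM from low to high dose, and in those of Polygalae Radix at 86.2, 80.7 and 40.9 CPM.

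The electron donors and the haem supply were abundant, and 5 of 30 gene and extract pairs were called between high and low dose, 3 higher and 2 lower. They were 1 of 5 genes with Yijin-tang, 1 with Soshiho-tang and 3 with Schisandrae Fructus. Over all genes the shares there were 7.79%, 5.08% and 7.33%. ALAS1, the first enzyme of haem synthesis, rose with Soshiho-tang by 0.33 ± 0.07 (edgeR adjusted p = 0.000604), at 54.4 CPM against 43.2 CPM. With Schisandrae Fructus ALAS1 rose by 0.20 ± 0.05 (0.0116), a call lost without high-dose replicate 2 (0.102) or low-dose replicate 3 (0.0646), and without the filter (0.104) or on the groups of that comparison alone (0.292). CYB5R3, which reduces cytochrome b5, rose with Schisandrae Fructus by 0.44 ± 0.08 (0.000166). PGRMC1, a haem-binding partner of P450 enzymes, was lower there by a log2 change of -0.26 ± 0.06 (0.00446), and at -0.11 without low-dose replicate 1 (0.307). On the groups of that comparison alone the PGRMC1 call was lost (0.396). POR, the oxidoreductase that feeds all these enzymes, was at 287 CPM in vehicle and was called between high and low dose with Yijin-tang alone, at a log2 change of -0.17 ± 0.04 (0.00881), a call lost without the filter (0.152), with no test of the difference from the other extracts.

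Of the 12 receptors and factors that control CYP genes all were tested, and 7 of 72 pairs were called between high and low dose, 2 higher and 5 lower. They were 3 of 12 genes with Yijin-tang, 1 with Soshiho-tang and 3 with Schisandrae Fructus. Over all genes the shares there were 7.79%, 5.08% and 7.33%. CEBPA, a factor of liver genes, fell with Soshiho-tang by a log2 change of -0.75 ± 0.08 (edgeR adjusted p = 1.9e-09), at 96.2 CPM against 162 CPM, and with Yijin-tang by -0.36 ± 0.06 (8.32e-05). NR3C1, the glucocorticoid receptor, was lower with Schisandrae Fructus by -0.30 ± 0.07 (0.00292), a call lost without low-dose replicate 1 (0.0828) or on the groups of that comparison alone (0.134). With Yijin-tang NR3C1 was lower by -0.23 ± 0.07 (0.0287), which was lost without any 1 library except low-dose replicate 3 (0.0599 to 0.262). NR0B2, a corepressor of nuclear receptors, was higher with Schisandrae Fructus by 0.40 ± 0.09 (0.00409), lost without low-dose replicate 1 (0.0626). PXR itself (NR1I2) stood at 15.6 CPM in vehicle, with high against low log2 changes from -0.04 to 0.16 in the 6 replicated extracts and none called, and CAR (NR1I3) at 0.652 CPM. In the single libraries NR1I2 stood at 17.9, 14.8 and 8.04 CPM from low to high Polygalae Radix. With Aucklandiae Radix it stood at 17.1, 16.4 and 3.97 CPM. Both falls were past 1 on the scale of log2(CPM + 1), as were 10.6% and 15.9% of all genes, and neither has a test.

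Of 7 other genes known to respond to PXR or CAR, 13 of 42 pairs were called between high and low dose, 6 higher and 7 lower, so the genes did not move one way. They were 6 of 7 genes with Yijin-tang, 3 with Soshiho-tang and 4 with Schisandrae Fructus. Over all genes the shares there were 7.79%, 5.08% and 7.33%. ABCC2, an export pump of conjugates, rose by 0.54 ± 0.05 with Yijin-tang (edgeR adjusted p = 1.38e-11), by 0.57 ± 0.06 with Soshiho-tang (4.55e-10) and by 0.50 ± 0.05 with Schisandrae Fructus (6.05e-11). SULT2A1, a sulfotransferase of steroids, fell by log2 changes of -0.50 ± 0.06 with Yijin-tang (2.03e-07) and -0.36 ± 0.06 with Schisandrae Fructus (7.35e-05). With Soshiho-tang SULT2A1 was at -0.30 ± 0.08 (0.0122), lost without high-dose replicate 2 (0.265), low-dose replicate 2 (0.11) or low-dose replicate 3 (0.0862). GSTA1, a glutathione transferase with near-identical copies, fell by -0.52 ± 0.13 with Yijin-tang (0.00489) and -0.57 ± 0.13 with Schisandrae Fructus (0.0019). On the groups of that comparison alone the Schisandrae Fructus calls of SULT2A1 (0.187) and GSTA1 (0.0828) were lost.

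Larger changes in 1 extract each were those of UGT1A1 and GSTA2, named here after their values were seen. UGT1A1, which conjugates bilirubin, had 0.669 CPM with high-dose Yijin-tang, against 0.148 CPM at low dose, from 14 to 21 and 2 to 5 counts in a library. It was higher by 2.16 ± 0.57 (edgeR adjusted p = 0.0116), a call lost without low-dose replicate 2 (0.0892), and UGT1A1 shares exons with the other UGT1A genes, so its values are uncertain. GSTA2, a near copy of GSTA1 and uncertain for that reason, had 3.84 CPM with high-dose Schisandrae Fructus, against 6.4 CPM at low dose. It was lower by a log2 change of -0.75 ± 0.14 (edgeR adjusted p = 0.000223), which held without each library in turn and was lost on the groups of that comparison alone (0.0545).

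**Figure D4:**
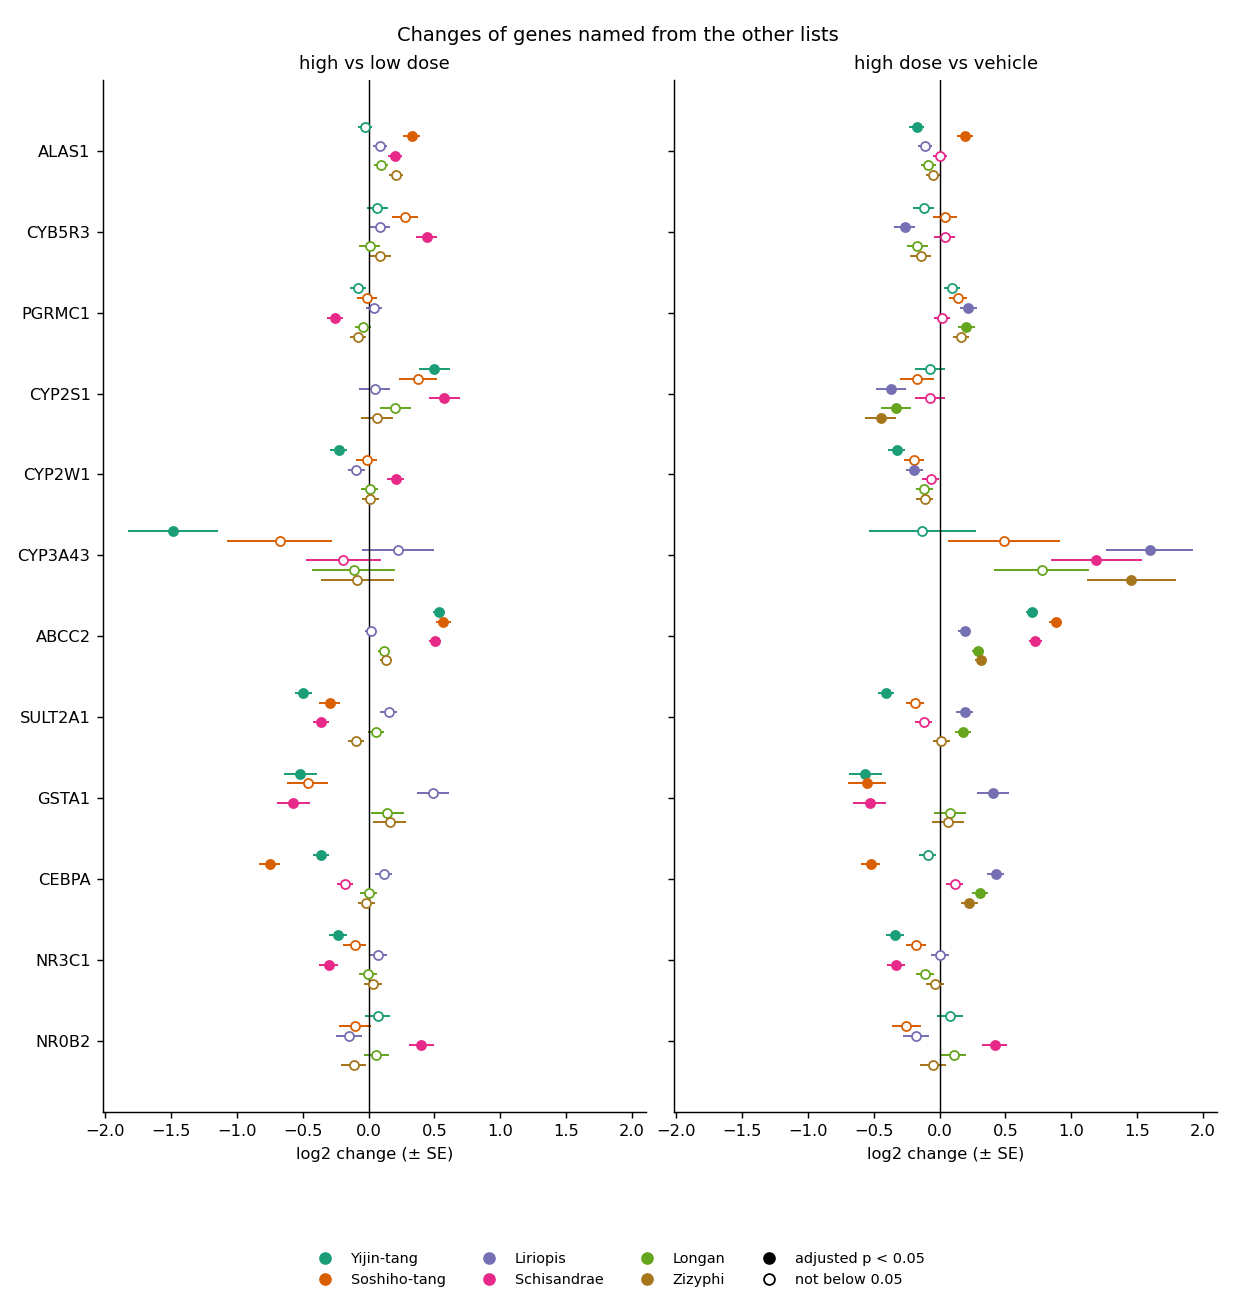
Log2 changes with standard errors of 12 genes named from the electron donors, the other CYP genes, the PXR and CAR targets and the receptors, for high dose against low dose and high dose against vehicle in 6 extracts. Filled points have an adjusted p under 0.05. ABCC2 lies to the right of 0 in both panels with Yijin-tang, Soshiho-tang and Schisandrae Fructus, while SULT2A1 and GSTA1 lie to its left in those extracts.

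The genes most like each detected member were sought over the 25 group means of log2(CPM + 1), among 13305 tested genes of at least 1 CPM. For CYP2J2 they were PFN2 (Pearson r = 0.896), VNN1 (0.866) and OSBPL10 (0.849). For CYP3A7 they were DBP (0.892), ORAI3 (0.846) and GRB7 (0.837). For CYP3A5 they were SIPA1 (0.727), ENSG00000279117 (0.726) and ENO2 (0.715), and for CYP2D6 PALM2AKAP2 (0.67), IL17B (0.633) and ENSG00000273319 (0.62). Among the members the correlations ran from -0.387 between CYP3A7 and CYP2J2 to 0.252 between CYP3A5 and CYP3A7. These are descriptions over groups that share code sets and a top rank among many candidates. Some of the 25 groups are single libraries. For CYP3A7 these hold both the highest mean, 7.44 CPM with low-dose Polygalae Radix, and the lowest, 1.79 CPM at its high dose. How far the correlations rest on them was not tested.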

How the data were processed

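The deposited table holds expected counts per gene for 60 libraries. Per the submitters' processing notes the authors used FastQC 0.11.9, Trim Galore 0.6.5, STAR 2.7.3a and RSEM 1.3.3 with hg38; the annotation release is not given in the sources used here. RSEM shares out reads that match several genes. A fraction was present in 10.4% of them, and rounding to whole counts preceded the tests. Libraries summed to 20.7 to 38.0 M, which limits precision for genes of few counts. Symbols came from a name table that matched 56558 of 60675 identifiers, and positions and exon lengths from GENCODE 29.

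The 19 groups of 2 or 3 libraries (54 libraries) were fitted together with edgeR 4.0.16 in R 4.3.3 (quasi-likelihood test, trimmed mean of M values, edgeR's filter by group). Benjamini-Hochberg adjustment ran over 16924 genes in each comparison. The comparisons were high vs low, medium vs low, high vs vehicle, low vs vehicle and the difference of the high vs low changes of extracts in 1 code set. CPM use normalization factors over all 60 libraries. The fit was checked on simulated data. Alternatives were DESeq2 1.42.0, other scalings, no filter, smaller fits, replicate blocks and each library left out. Between single libraries the ratio intervals are exact for counts.

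All 9 members are named. From each other list the named genes are up to 3 called in high vs low in the most extracts, ties going to the larger change. Genes alike a member are the 3 of highest Pearson r. CYP2D7, CYP3A7-CYP3A51P, POR, NR1I2, NR1I3, UGT1A1 and GSTA2 were named besides, after their values were seen. Members and lists were chosen with earlier results of these data known. Wortmannin, a positive control in the series text, is not analysed here.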

Additional observations from a re-analysis of the deposited data

Results flagged for a closer look

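The high against low log2 change of CYP3A5 was higher with Schisandrae Fructus than with Liriopis seu Ophiopogonis Tuber by 0.786 (edgeR adjusted p = 0.0046), a difference tested as an interaction in the fit across all genes. It stands out because extracts of 1 code set differed in their effect on this gene. The difference was 0.713 to 0.887 when each of the 12 libraries was left out in turn, with the adjusted p at most 0.0176. Fitted on these 4 groups alone it was 0.787 with an adjusted p of 0.0703.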

How the results depend on the processing

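Of 24 tests each, calls between high and low dose numbered 4, and 4 or 5 under other scalings, no filter, smaller fits, DESeq2, the replicate block over all groups (5) and without both libraries that stand apart (5, chosen after seeing the data), but 7 with a replicate block within code set. The 3 gained there were CYP3A5 and CYP3A7 with Yijin-tang and CYP2J2 with Schisandrae Fructus, and the block over all groups also gained CYP2J2 (adjusted p = 0.0374, and 0.0335 within code set). Same-numbered samples had a median correlation of deviations of 0.0876 over 123 pairs (-0.501 to 0.561), with 57 over 0.1. Their medians were 0.0415, 0.127 and 0.129 in code sets 8, 9 and 10. Differently numbered samples had a median of -0.0363 over 240 pairs (-0.536 to 0.553), with 31 over 0.1. Their medians in the same sets were -0.0189, -0.0679 and -0.066. Same-numbered samples were thus more alike at the median. The main fit does not model the numbers as pairs, and whether they pair the libraries was not tested. Calls between high dose and vehicle numbered 9, from 6 (no filter, or only the groups of that comparison) to 13 (library size alone). Calls between low dose and vehicle numbered 1, then 10 with library size alone, 2 without both libraries that stand apart and 0 with only the groups of that comparison. The single call in the difference of dose responses was 0 with only those groups. Library size alone shifted the median of all genes against vehicle by 0.0897 to 0.137 on the log2 scale. Leaving out 1 library gave 3 to 5 calls between high and low dose, 4 to 9 between high dose and vehicle, 0 to 3 between low dose and vehicle and 1 throughout in the difference; between medium and low dose there were 0 under every alternative run. No direction reversed. The cause of these moves was not tested. DESeq2 left some adjusted p as NA. The 5 sparse genes had at most 14 counts in a library.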
